A study of Mus musculus with 13 samples.

Results

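The MHC class I presentation genes were followed here as 10 mouse genes, named H2-K1, H2-D1, H2-Q8, H2-T23, B2m, Tap1, Tap2, Tapbp, Psmb8 and Psmb9 in the scanner files. Every non-control probe carrying one of these names was taken, which gave 19 probes of the 10 genes among 41174 non-control probes. All 19 passed the filter on dim probes and were tested together with 29059 probes in all. The 9 H2 probes are given apart, because the heavy chain genes resemble one another in sequence.

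The arrays measured RNA of bone marrow-derived macrophages, which are grown from marrow cells of C57BL/6 male mice aged 12 to 16 weeks. The cells were kept for 6 days in 30% medium conditioned by L929 cells, a source of the macrophage growth factor, and replated. Control cells carried HDAC3 alleles with loxP sites around exons 4 to 7 and no Cre recombinase. HDAC3 KO cells carried the same floxed alleles and Cre under the lysozyme M promoter, which is active in myeloid cells. The comparisons of HDAC3 loss below set KO against control cells. Only KO cells carried Cre, so HDAC3 loss and Cre itself cannot be told apart. Each genotype received 0.1% bovine serum albumin as vehicle or IL-4 at 10 ng/mL for 24 h. There were 4 control vehicle arrays (1, 2, 3 and 4), 3 KO vehicle arrays (5, 6 and 7), 3 control IL-4 arrays (9, 10 and 12) and 3 KO IL-4 arrays (13, 14 and 15). Whether the arrays of 1 group stand for different mice or cultures is not in the labels. The p-values therefore cover the spread among these arrays alone, which may be technical.

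Class I molecules show peptides of proteins made inside the cell to CD8 T cells and natural killer cells. The proteasome cuts the proteins, the Tap1 and Tap2 transporter carries peptides into the endoplasmic reticulum, and tapasin (Tapbp) holds an empty heavy chain at the transporter until a peptide binds. The heavy chain is stable at the cell surface only with its light chain, beta-2 microglobulin (B2m). Interferons raise many of these genes through STAT and IRF factors, and class I promoters also hold NF-kappa-B sites and an X box and Y box that assemble an NLRC5-dependent complex.

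Promoter sequences from RefSeq (GRCm38.p6) were read for 8 of the 10 members, in windows from 250 bases before to 50 bases after each start. The windows of H2-K1 and H2-D1, the classical heavy chains, are shown first because the 2 genes share a stretch but not their calls. Most H2-K1 probes were called lower in KO cells and no H2-D1 probe was, which alone does not show unlike responses. Without gaps, 166 of 190 aligned bases before the starts were identical (87.4%). Both windows held the palindromic NF-kappa-B site GGGATTCCC, found in 0.353% of 32851 promoter windows on either strand. It was followed by a short form of the interferon-stimulated response element, GAANNGAA, found in 20.14% of windows. That short form was searched after the H2 promoters had been read. From the first base of one site to the last base of the other, the stretch was 29 bases long in both genes and differed at 1 base. H2-K1 lies on the minus strand at chr17:34000429-34000457 and H2-D1 on the plus strand at chr17:35262924-35262952, and capitals mark the 2 motifs.
H2-K1 stretch: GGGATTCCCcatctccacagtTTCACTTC
H2-D1 stretch: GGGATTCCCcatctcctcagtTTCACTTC

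The other windows are printed from 250 bases before the start to the base before it, with capitals on matches to GAAANNGAA (the longer interferon element, 8.56% of windows), GAANNGAA, TTCNNNGAA (a STAT element, 8.298%), GGGATTCCC and GGACTTTCC (another NF-kappa-B form, 0.344%). H2-D1 is at chr17:35262844-35263093 on the plus strand, H2-T23 at chr17:36032702-36032951 on the minus strand, B2m at chr2:122147437-122147686 on the plus strand and Psmb8 at chr17:34197945-34198194 on the plus strand.
H2-D1 promoter: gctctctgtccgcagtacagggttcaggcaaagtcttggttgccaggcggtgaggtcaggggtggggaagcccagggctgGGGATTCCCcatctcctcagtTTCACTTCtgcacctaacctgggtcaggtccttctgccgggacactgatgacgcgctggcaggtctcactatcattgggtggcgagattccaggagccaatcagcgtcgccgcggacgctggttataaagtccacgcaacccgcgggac
H2-T23 promoter: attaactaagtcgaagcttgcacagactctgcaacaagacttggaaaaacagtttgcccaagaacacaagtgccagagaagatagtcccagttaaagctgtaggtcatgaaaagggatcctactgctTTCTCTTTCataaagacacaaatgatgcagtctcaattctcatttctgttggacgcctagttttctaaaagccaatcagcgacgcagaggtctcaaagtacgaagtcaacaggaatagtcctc
B2m promoter: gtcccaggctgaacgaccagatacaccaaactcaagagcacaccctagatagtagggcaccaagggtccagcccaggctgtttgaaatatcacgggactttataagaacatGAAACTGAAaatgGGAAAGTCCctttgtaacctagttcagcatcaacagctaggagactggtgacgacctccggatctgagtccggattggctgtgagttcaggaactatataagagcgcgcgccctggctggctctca
Psmb8 promoter: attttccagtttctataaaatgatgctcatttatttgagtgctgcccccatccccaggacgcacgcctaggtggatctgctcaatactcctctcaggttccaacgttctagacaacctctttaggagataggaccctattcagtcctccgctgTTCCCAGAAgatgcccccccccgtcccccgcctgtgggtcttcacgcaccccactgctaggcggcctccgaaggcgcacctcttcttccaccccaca

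The window of B2m held the longer interferon element at -139 bases from its start and GGACTTTCC on the opposite strand. H2-T23 held the longer interferon element, and Psmb8 held the STAT element. The windows of Tap1, Psmb9 and Tapbp held none of these 5 letter strings, which says nothing about the factors. Tap1 and Psmb9 face away from each other, with 225 bases between their starts (chr17:34187331-34187555, plus strand, the direction of Tap1). That sequence is shown because Psmb9 was called in vehicle and Tap1 was not, while neither was called under IL-4. Their KO minus control differences in vehicle were near each other on the log2 scale. They were -0.53 (SE 0.13) for Psmb9 and -0.49 (SE 0.20) for Tap1, so the calls do not show unlike responses. Capitals mark TGACG (the X2 box core, 20.81% of windows) and ATTGG or its complement (the CCAAT or Y box, 37.41%).
Tap1 and Psmb9 interval: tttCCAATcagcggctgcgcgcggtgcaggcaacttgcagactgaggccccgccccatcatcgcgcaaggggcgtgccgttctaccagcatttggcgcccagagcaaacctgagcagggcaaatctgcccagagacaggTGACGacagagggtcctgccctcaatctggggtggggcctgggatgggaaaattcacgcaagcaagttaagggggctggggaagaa

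**Figure D1:**
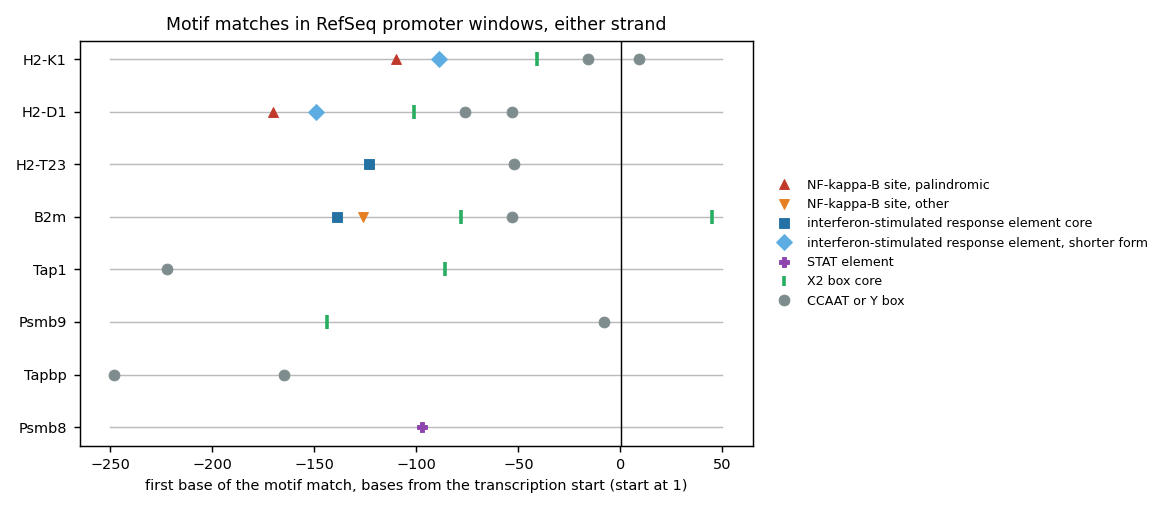
Positions of motif matches on either strand in the promoter windows of 8 members, as the distance in bases of the first base of the match from the transcription start. H2-K1 and H2-D1 hold the palindromic NF-kappa-B site at -110 and -170, each followed by the shorter interferon element, the X2 box core and the Y box. For H2-K1 a second RefSeq start, not drawn, puts that site at -124.

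The H2 probes are 60-base oligonucleotides, and H2 probes were aligned without gaps to show how far a signal may be shared. For 3 members a similar probe of another gene is printed. Capitals mark the bases that differ within the overlap. The H2-D1 probe A_52_P313279 (mm9, chr17:35403132-35403191) matched the H2-Q2 probe at 47 of 50 overlapping bases. The H2-T23 probe matched an H2-Q7 probe at 50 of 59. The H2-K1 probe A_52_P50496 (mm9, chr17:34136288-34136347) matched an H2-Q10 probe at 40 of 52. Other pairs, not printed, were H2-T23 with another H2-Q10 probe (36 of 45), the H2-K1 probe A_52_P474242 with H2-Bl (46 of 59), and the H2-K1 probes A_51_P198434 and A_51_P190499 with each other (49 of 57).
H2-D1 probe: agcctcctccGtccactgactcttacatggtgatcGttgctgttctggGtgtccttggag
H2-Q2 probe: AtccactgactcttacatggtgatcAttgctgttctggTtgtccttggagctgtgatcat
H2-T23 probe: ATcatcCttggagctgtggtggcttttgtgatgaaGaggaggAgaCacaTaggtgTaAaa
H2-Q7 probe: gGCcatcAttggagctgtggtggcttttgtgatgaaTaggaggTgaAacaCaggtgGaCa
H2-K1 probe: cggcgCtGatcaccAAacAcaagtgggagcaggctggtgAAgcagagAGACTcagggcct
H2-Q10 probe: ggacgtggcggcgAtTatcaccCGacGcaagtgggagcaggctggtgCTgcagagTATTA

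No other H2 probe reached 75% identity with the H2-Q8 probe (mm9, chr17:35532389-35532448) or with the H2-D1 probe A_51_P496996. Transcripts were not searched, so signal from other heavy chains in these probes was not tested.

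The genotype was checked on Hdac3 itself. The place of its probe was not compared with the deleted exons, and it stood at 37.7% of control in vehicle (adjusted p = 0.00316) and 34.9% under IL-4 (adjusted p = 0.0044, limma with Benjamini-Hochberg adjustment). Lyz2, whose promoter drives Cre, was at 98.8% of control in KO vehicle cells. Under IL-4 it was at 123% of control with every KO array above every control array, and was not called (adjusted p = 0.128). All 10 macrophage markers were tested, and their summed linear level per array ran from 552 to 678.7 times the array's 75th percentile. Of these markers 2 were called higher and 1 lower in KO vehicle cells, and 3 higher in KO IL-4 cells. The summed markers of each of the 7 other cell lineages were at most 11.22 on any array. These sums hold unlike numbers of markers, and levels are not comparable across probes, so they do not measure purity. Some markers of the other lineages were measured on all 13 arrays (S100a8, S100a9, Ltf and Mpo of neutrophils, Flt3 and Zbtb46 of dendritic cells), while Elane, Ccr7 and Cd209a were not well above background on any. In the genotype comparisons 1 T or NK cell marker, Klrb1c, was called higher in KO cells by limma (2.17, adjusted p = 0.00848 in vehicle, and 1.84, adjusted p = 0.0374 under IL-4). It was well above background on only 5 of 13 arrays. Its means were -4.37 in control and -2.20 in KO vehicle arrays, and -4.63 and -2.79 under IL-4. The filter on dim probes passes a probe through 1 group alone, here one where it is high. These p-values are therefore no support for a difference. The B cell marker Cd79b was called lower in vehicle (-0.75, adjusted p = 0.045, limma). The part of these markers in the members' differences was not tested. Between 56.17% and 83.19% of spots per array were well above background, lowest on control vehicle array 4 and KO IL-4 array 15. The 13 arrays lay on 4 slides, and every group kept to 1 position on the slides. Slide position and group therefore cannot be told apart.

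In vehicle, 4 of the 9 H2 probes and 4 of the 10 other member probes were called lower in KO cells. No H2-D1, H2-T23, Tap1, Tap2 or Tapbp probe passed the test. Of the 19 member probes 8 were called lower at an adjusted p under 0.05 (limma with Benjamini-Hochberg adjustment over all 29059 probes), against 1.95% of all probes. None was called higher, against 2.2% of all probes. In these bulk samples, fewer cells of a type and less RNA per cell cannot be told apart. At an unadjusted p under 0.05 (limma), 14 were lower and 0 higher, against 3836 of all 29059 probes in either direction. The lower calls were 3 of the 4 H2-K1 probes, the H2-Q8 probe, 1 of the 3 B2m probes, both Psmb8 probes and the Psmb9 probe. The median difference was -0.49 on the log2 scale over the member probes and 0.02 over all probes. In 14 of the 19 every KO array lay below every control array, which held for 7.79% of all probes, and in 0 every KO array lay above (8.63% of all probes). The count of lower calls fell to 5 without KO vehicle array 5, and to 5 without KO vehicle array 6.

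Under IL-4 the same genotype comparison gave 7 lower calls of 19, against 1.43% of all probes, and 0 higher calls, against 1.77%. At an unadjusted p under 0.05, 14 member probes were lower and 0 higher (limma), against 4190 of all 29059 probes in either direction. The called probes were the same 3 of H2-K1, H2-Q8, both of Psmb8, and a B2m probe other than the one called in vehicle. In 12 of the 19 the groups did not overlap, with KO lower, against 8.25% of all probes, and in 0 with KO higher (9.15%). The count fell to 4 without control IL-4 array 12, without KO IL-4 array 13 or without KO IL-4 array 15. It fell to 2 when each array was scaled on its median, and to 2 when only the IL-4 groups entered the fit. The KO and control arrays of each treatment are different arrays, so the vehicle and IL-4 comparisons share no array. They do share the spread per probe, which 1 fit took from all arrays. Whether their cells come from the same mice or cultures is not in the labels. The 2 comparisons therefore cannot be taken as independent repeats.

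H2-Q8, a nonclassical heavy chain of the Qa region, had the widest genotype difference of the members. Levels are given as log2 units relative to the array's 75th percentile, and are compared within a probe only. Control vehicle arrays 1 to 4 read 2.79, 2.96, 3.27 and 2.87, and KO vehicle arrays 5 to 7 read -0.19, -0.27 and 0.84. Control IL-4 arrays 9, 10 and 12 read 3.42, 3.35 and 3.31, and KO IL-4 arrays 13 to 15 read 0.77, 1.05 and 1.13. Every KO array was below every control array, with no overlap in either treatment, and KO vehicle array 7 was the highest of its group. The KO level was 13.9% of control in vehicle, a log2 difference of -2.85 (SE 0.23, adjusted p = 8.45e-05, limma). Under IL-4 it was 19.3% of control, a difference of -2.38 (SE 0.25, adjusted p = 0.000506, limma). Within the slides that held both genotypes, the differences were -2.98, -3.23 and -2.43 in vehicle and -2.65 and -2.30 under IL-4. The call held in all 26 alternative fits of both comparisons.

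H2-K1, a classical heavy chain that presents peptides to CD8 T cells, had 4 probes, and all 4 had lower KO means in both treatments. Probe A_51_P198434 (mm9, chr17:34133055-34133114), spotted 10 times per array, read 5.91, 5.97, 6.04 and 6.04 in control vehicle arrays and 5.25, 5.24 and 5.44 in KO vehicle arrays. Its control IL-4 arrays read 6.30, 6.19 and 6.13, and its KO IL-4 arrays read 5.39, 5.75 and 5.63. The groups did not overlap in either treatment. The difference was -0.68 in vehicle (95% interval -0.91 to -0.45, adjusted p = 0.00311) and -0.61 under IL-4 (-0.86 to -0.37, adjusted p = 0.0116, limma). KO cells thus held 62.3% and 65.4% of the control level.

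The H2-K1 probe A_52_P50496, printed above beside its H2-Q10 neighbour, read 2.48, 2.53, 2.54 and 2.36 in control vehicle arrays and 1.53, 1.46 and 1.82 in KO vehicle arrays. In IL-4 it read 2.65, 2.71 and 2.68 in control and 1.78, 1.58 and 1.68 in KO arrays. The highest KO array lay below the lowest control array in both treatments. The KO level was 54.5% of control in vehicle (difference -0.87, SE 0.10, adjusted p = 0.000637) and 50% under IL-4 (difference -0.999, SE 0.11, adjusted p = 0.000656, limma). That call held in all 25 alternative fits of each comparison. Probe A_51_P190499, which the files tie to another H2-K1 sequence record, was also called lower in vehicle (-0.69, adjusted p = 0.00595) and under IL-4 (-0.73, adjusted p = 0.009), but it resembles A_51_P198434 (49 of 57 bases) and may share its signal. Under IL-4 the calls of A_51_P198434 and A_51_P190499 were each lost in 3 alternative fits. These were median scaling (adjusted p = 0.126 and 0.0668), only the groups compared (0.18 and 0.135), and the fit without the 2 arrays with fewest spots above background (0.0594 and 0.063).

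The remaining H2-K1 probe, A_52_P474242 (mm9, chr17:34136478-34136724), was not called. It read 2.76 to 2.97 in control vehicle and 2.16 to 2.47 in KO vehicle arrays, a difference of -0.57 (adjusted p = 0.0885, limma) with no overlap. Under IL-4 control array 9 read 2.48, below KO arrays 13 (2.64) and 15 (2.51), and the groups overlapped. Without that array the IL-4 difference was -0.66 with an adjusted p of 0.0237 (limma). The IL-4 difference stayed uncalled in 23 of 25 alternative fits.

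H2-D1, the other classical heavy chain on this array, had 3 probes and none was called. Probe A_51_P496996 (mm9, chr17:35403437-35403669) read 6.04, 6.02, 6.18 and 6.01 in control vehicle arrays and 5.81, 5.67 and 5.90 in KO vehicle arrays. The groups did not overlap in vehicle, where the difference was -0.27 (95% interval -0.50 to -0.04, adjusted p = 0.27, limma). Under IL-4 KO array 14, at 6.29, reached the control range of 6.27 to 6.35, and the difference was -0.21 (-0.46 to 0.04). Probe A_52_P313279, which nearly matches H2-Q2, gave -0.27 in vehicle and -0.13 under IL-4. The other probe with this name, A_52_P246277, sits at chr17:36323454-36323516 in mm9, apart from the first 2. It was well above background on 10 of 13 arrays and gave -0.28 and 0.06.

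H2-T23, which encodes the Qa-1 heavy chain recognised by natural killer receptors, was lower in every KO array of both treatments without passing the test. In vehicle, control arrays read 5.40, 5.48, 5.37 and 5.53 and KO arrays 5.05, 5.15 and 5.14. In IL-4, control arrays read 5.77, 5.71 and 5.72 and KO arrays 5.30, 5.65 and 5.36. The differences were -0.33 (95% interval -0.55 to -0.12, adjusted p = 0.104) and -0.29 (-0.52 to -0.06, adjusted p = 0.213, limma). In vehicle it passed the threshold in 6 of 26 alternative fits.

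**Figure D2:**
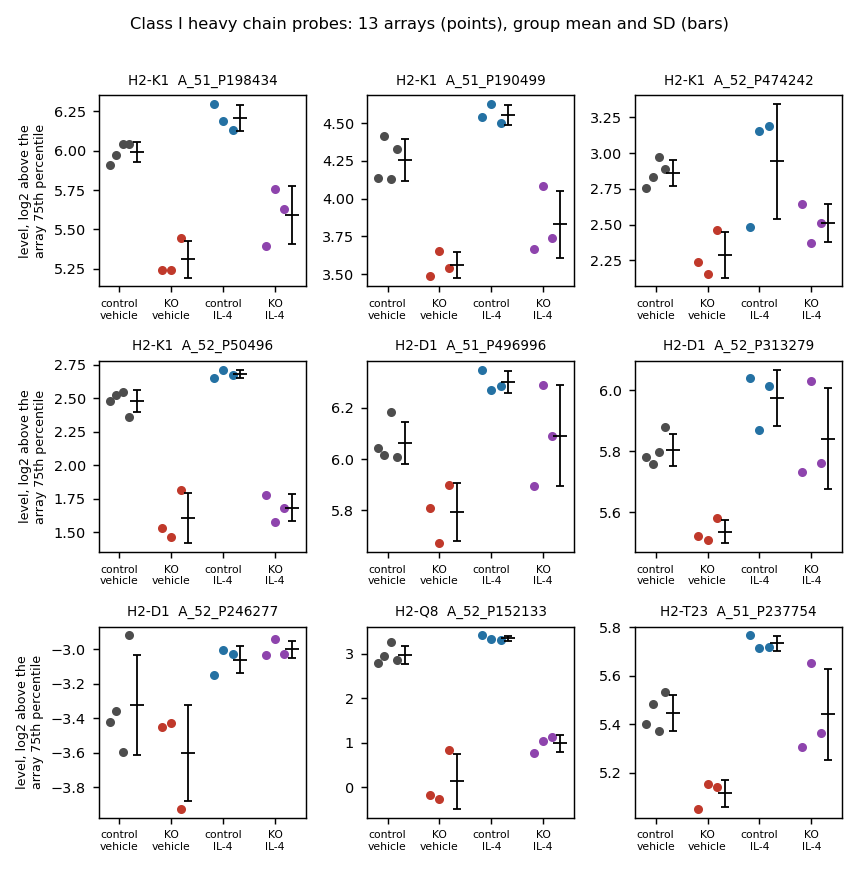
Levels of the 9 H2 probes on the 13 arrays, in log2 units relative to each array's 75th percentile, by genotype and treatment; points are arrays, and bars give the group mean and SD. For H2-Q8 and the H2-K1 probes A_51_P198434, A_51_P190499 and A_52_P50496 the KO arrays lie below all control arrays in both treatments, while A_52_P246277 overlaps.

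B2m, the light chain shared by all class I molecules, had small genotype differences in its 2 probes on the B2m reference transcript. Probe A_51_P129012 (mm9, chr2:121978401-121978460) read 7.00, 7.03, 7.00 and 7.01 in control vehicle arrays and 6.85, 7.00 and 6.84 in KO vehicle arrays. These groups overlapped, and the difference was -0.11 (95% interval -0.31 to 0.09, adjusted p = 0.772, limma). Under IL-4 the control arrays read 7.27, 7.11 and 6.97 and the KO arrays 6.76, 6.78 and 6.77, with no overlap and a difference of -0.35 (adjusted p = 0.0911).

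The second B2m probe, A_51_P129006 (mm9, chr2:121978525-121978581), was spotted 10 times per array. It read 6.42, 6.50, 6.40 and 6.56 in control vehicle, 6.13, 6.28 and 6.22 in KO vehicle, 6.60, 6.57 and 6.53 in control IL-4, and 6.20, 6.23 and 6.14 in KO IL-4 arrays. No KO array reached a control array of its treatment. The difference was -0.26 in vehicle (adjusted p = 0.128) and -0.37 under IL-4 (95% interval -0.57 to -0.18, adjusted p = 0.0427, limma), where it was called. The IL-4 call was lost in 18 of 25 alternative fits, among them those without any 1 array (adjusted p 0.0605 to 0.134) and the slide block (0.156).

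The B2m probe called in vehicle, A_52_P105594 (mm9, chr2:121974599-121974658), is tied to another sequence record than the reference transcript. Control vehicle arrays read -0.58, -0.53, -0.73 and -0.76 and KO vehicle arrays -1.16, -1.51 and -1.53, without overlap. The difference was -0.75 (SE 0.19, adjusted p = 0.0447, limma), and the call was lost in 14 of 25 alternative fits, including the slide block (adjusted p = 0.144). Under IL-4, control array 9 read -1.69 and fell among the KO arrays (-1.52, -1.85 and -1.78). The difference there was -0.54 (adjusted p = 0.224).

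Neither transporter subunit was called. Tap1 (mm9, chr17:34330854-34330913) read -1.51, -1.28, -1.01 and -1.61 in control vehicle and -1.76, -2.15 and -1.64 in KO vehicle arrays. Under IL-4 it read -1.76, -1.27 and -1.41 in control and -1.82, -2.48 and -2.14 in KO arrays. The KO arrays lay below the controls in both treatments, with little room between KO array 7 and control array 4 and between KO array 13 and control array 9. Tap1 was not called, at -0.49 in vehicle (95% interval -0.93 to -0.05, adjusted p = 0.292) and -0.67 under IL-4 (-1.14 to -0.20, adjusted p = 0.155, limma).

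Tap2 (mm9, chr17:34351722-34352309) overlapped between genotypes in both treatments. Its levels ran from -0.68 to -0.39 in control vehicle, -0.59 to -0.19 in KO vehicle, -0.65 to -0.36 in control IL-4 and -0.85 to -0.55 in KO IL-4 arrays. The differences were 0.13 (95% interval -0.16 to 0.43) in vehicle and -0.18 (-0.49 to 0.13) under IL-4. Tapbp, the tapasin gene, had 2 probes and neither was called. Probe A_51_P304500 (mm9, chr17:34066022-34066081) gave -0.09 (-0.29 to 0.12) in vehicle and -0.27 (-0.48 to -0.05, adjusted p = 0.23) under IL-4, where its groups did not overlap. Probe A_52_P684830 gave 0.00 (-0.29 to 0.29) and -0.02 (-0.33 to 0.29).

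Psmb8, the interferon-inducible proteasome subunit that takes the place of Psmb5 in the immunoproteasome, was lower in KO cells on both probes. Probe A_51_P345366 (mm9, chr17:34337828-34338152) read 2.52, 2.52, 2.76 and 2.51 in control vehicle and 1.73, 1.70 and 2.04 in KO vehicle arrays. Under IL-4 it read 2.74, 2.47 and 2.49 in control and 1.56, 2.12 and 1.72 in KO arrays. The groups did not overlap, and the KO level was 59.3% of control in vehicle (difference -0.75, adjusted p = 0.0126) and 58.8% under IL-4 (-0.77, adjusted p = 0.0208, limma).

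The Psmb8 probe A_51_P345367 (mm9, chr17:34337771-34337830) read 1.89, 1.73, 2.003 and 1.75 in control vehicle and 0.96, 0.78 and 1.24 in KO vehicle arrays. In IL-4 it read 1.90, 1.64 and 1.74 in control and 0.89, 1.20 and 1.13 in KO arrays. Again no KO array reached a control array. The difference was -0.85 in vehicle (SE 0.13, adjusted p = 0.00307), which held in all 25 alternative fits. The vehicle call of A_51_P345366 was lost in 3 of 26, with median scaling (adjusted p = 0.0582), without KO vehicle array 5 (0.0805) and without KO vehicle array 6 (0.0796). Under IL-4 the difference of A_51_P345367 was -0.69 (SE 0.14, adjusted p = 0.0203, limma). The IL-4 calls of A_51_P345366 and A_51_P345367 were lost in 9 of 26 and 8 of 25 alternative fits. The slide block ended the former (adjusted p = 0.0508) and kept the latter (0.0283).

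Psmb9, the subunit that takes the place of Psmb6, was called in vehicle and missed the threshold under IL-4, while the genotype difference itself was not called as differing between treatments (interaction 0.01, 95% interval -0.39 to 0.41). Its probe (mm9, chr17:34319174-34319233) read 2.16, 2.10, 2.11 and 2.11 in control vehicle and 1.63, 1.36 and 1.78 in KO vehicle arrays. In IL-4 it read 2.45, 2.06 and 2.10 in control and 1.54, 1.76 and 1.75 in KO arrays. The groups did not overlap. The difference was -0.53 in vehicle (95% interval -0.80 to -0.25, adjusted p = 0.0377) and -0.52 under IL-4 (-0.81 to -0.22, adjusted p = 0.0682, limma). The vehicle call was lost in 12 of 26 alternative fits, including the slide block (adjusted p = 0.0708), and the IL-4 difference was called in 5 of 26.

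**Figure D3:**
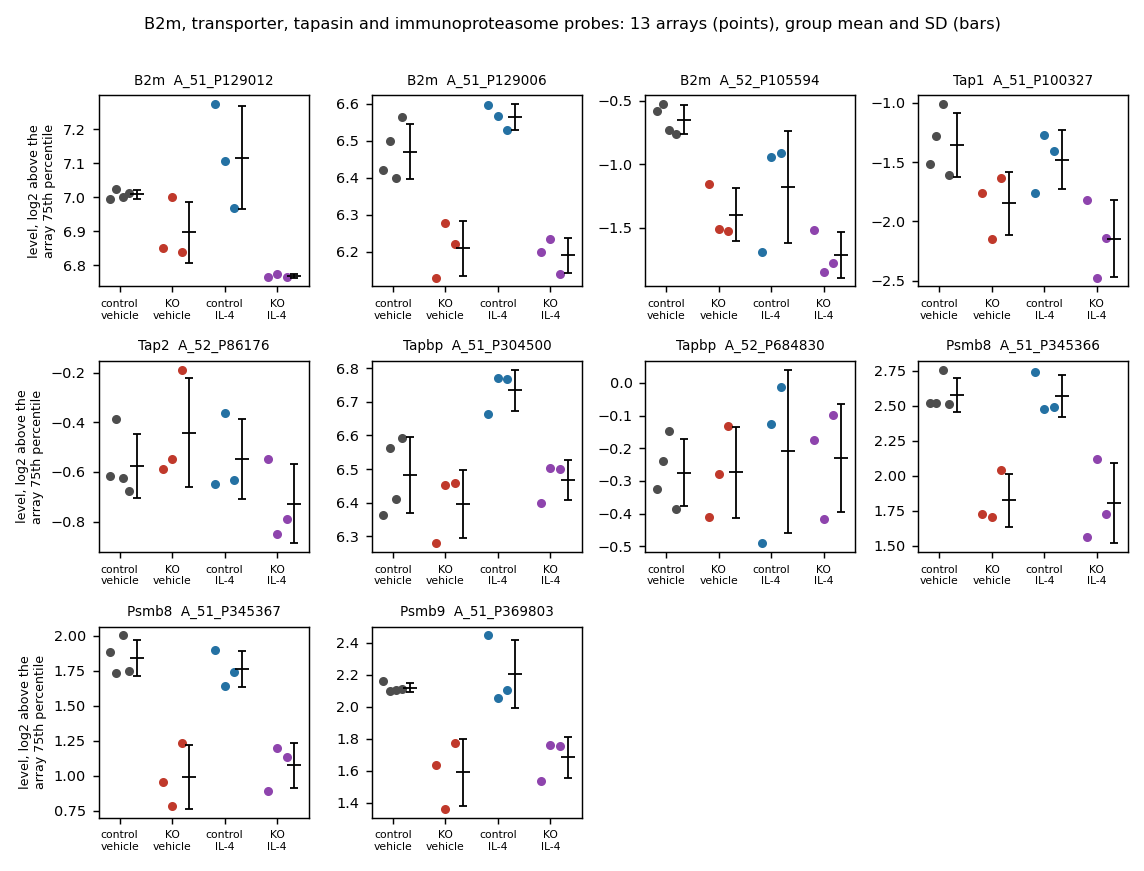
Levels of the 10 probes of B2m, Tap1, Tap2, Tapbp, Psmb8 and Psmb9 on the 13 arrays, in log2 units relative to each array's 75th percentile; points are arrays, and bars give the group mean and SD. Both Psmb8 probes and Psmb9 show KO arrays below all control arrays in vehicle and under IL-4, whereas Tap2 and the Tapbp probe A_52_P684830 overlap throughout.

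Ratios of partners in the pathway were taken within each array, using the brightest probe of each gene. Genotype labels were permuted exactly within each treatment (700 arrangements, two-sided, smallest possible p 0.00143), and p-values were adjusted over the 7 ratios. The pairs were chosen after the single-gene differences had been seen, so these p-values are not independent of those differences. They cannot serve as a separate test of whether partners moved unequally, and the adjustment does not count that choice. Psmb8 over Psmb5 was lower in KO cells by 0.90 in vehicle and 1.12 under IL-4 on the log2 scale. Psmb9 over Psmb6 differed by -0.80 and -0.74. H2-K1 over H2-D1 differed by -0.41 and -0.40, H2-K1 over B2m by -0.57 and -0.27, and H2-Q8 over H2-K1 by -2.17 and -1.76. Tap1 over Tap2 differed by -0.63 and -0.49. Each of these 6 had an exact permutation p of 0.00143, adjusted 0.00167, and kept its sign in all 5 within-slide differences. H2-K1 over B2m depends on the B2m probe. The one used differed by -0.11 in vehicle and -0.35 under IL-4. The others differed by -0.26 and -0.37 (A_51_P129006) and by -0.75 and -0.54 (A_52_P105594), beside -0.68 and -0.61 for the H2-K1 probe. Psmb10 over Psmb7, the matching pair of the remaining immunoproteasome subunit, differed by -0.29 and -0.18 (exact permutation p = 0.129) and had a positive value, 0.46, on 1 slide.

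IL-4 itself called no member probe in either genotype. In control cells 0 of 19 were called higher, against 2.51% of all probes, and 0 lower, against 2.8%. At an unadjusted p under 0.05, 4 were higher and 1 lower (limma), against 4233 of all 29059 probes in either direction. In KO cells 0 were called higher, against 1.1%, and 0 lower, against 0.926%. There 6 were higher and 0 lower at an unadjusted p under 0.05 (limma), against 3537 of all 29059 probes in either direction.

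All 9 H2 probes had IL-4 means above their vehicle means in both genotypes, with none past the threshold. They include the dim H2-D1 probe A_52_P246277, which passed the filter through the control IL-4 arrays alone. In control cells 6 of the 9 had every IL-4 array above every vehicle array, against 8.2% of all probes, and the median difference of the 9 was 0.24. Among all 19 members 1 probe, B2m A_52_P105594, had every IL-4 array below (8.42% of all probes). In KO cells 4 of the 9, that dim probe among them, had every IL-4 array above every vehicle array, against 8.7% of all probes. The median difference of the 9 was 0.30, and 1 member probe, B2m A_51_P129012, lay below without overlap (9.31%). For H2-T23 the difference was 0.28 (95% interval 0.07 to 0.50, adjusted p = 0.158) in control and 0.33 (0.09 to 0.56, adjusted p = 0.19, limma) in KO cells. H2-Q8 differed by 0.38 (-0.13 to 0.89) in control and 0.85 (0.31 to 1.40, adjusted p = 0.135, limma) in KO cells. The latter stayed uncalled in 24 of 26 alternative fits and was called in 2. Among those 2 was the fit without KO vehicle array 7, at 1.21 with an adjusted p of 0.00489 (limma). Among the other members Tapbp A_51_P304500 lay above the vehicle range in control cells without passing the test (0.25, adjusted p = 0.199).

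The immunoproteasome members overlapped between vehicle and IL-4 in both genotypes. In control cells the differences were -0.01 (95% interval -0.33 to 0.31) and -0.08 (-0.37 to 0.21) for the Psmb8 probes and 0.08 (-0.19 to 0.36) for Psmb9. In KO cells they were -0.02, 0.08 and 0.09. Tap1 gave -0.13 (-0.57 to 0.31) in control and -0.30 (-0.77 to 0.17) in KO cells.

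The response to IL-4 was compared between genotypes by the interaction term. None of the 19 member probes was called (limma), against 0.00344% of all probes. None had an unadjusted p under 0.05 (limma), against 1087 of all 29059 probes. The interaction estimates ran from -0.31 for Tap2 (95% interval -0.74 to 0.11) to 0.47 for H2-Q8 (-0.28 to 1.22), so differences of that size lie within the intervals.

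**Figure D4:**
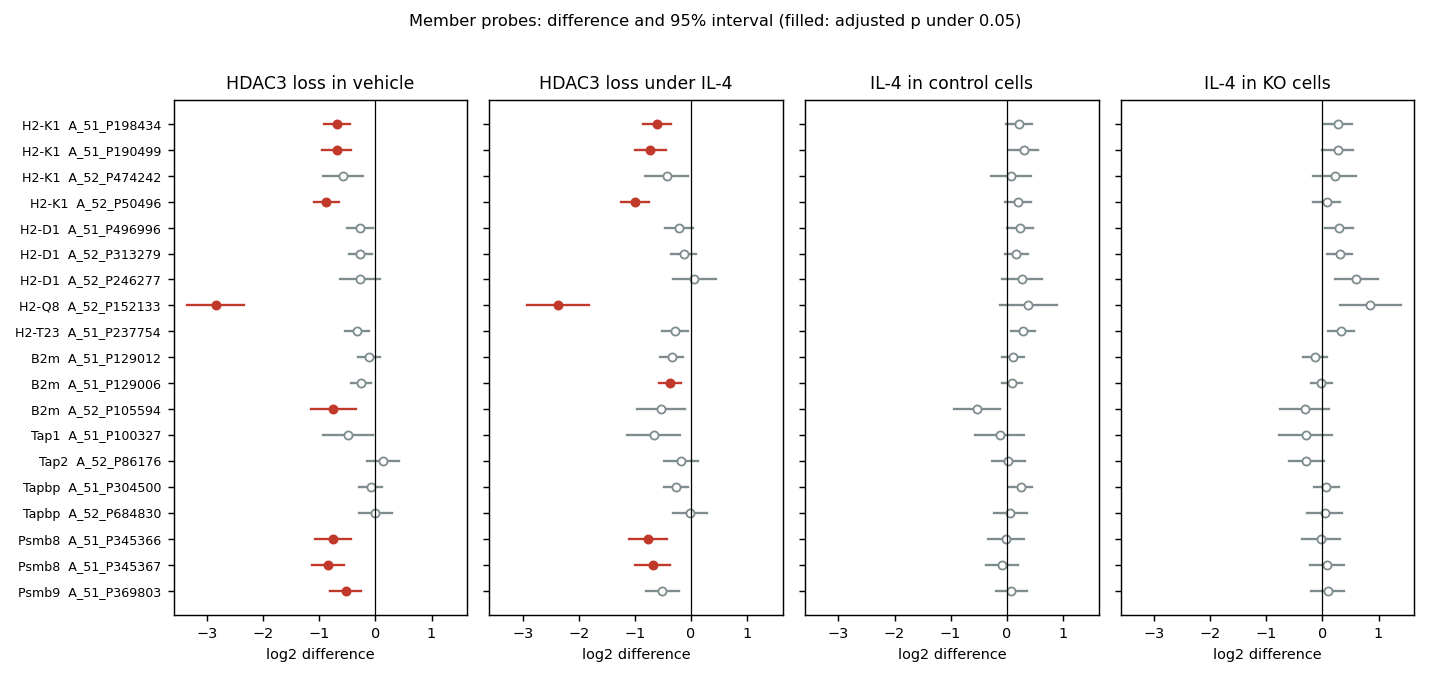
Differences of the 19 member probes in 4 comparisons, on the log2 scale, with 95% intervals from the limma fit; filled red points have an adjusted p under 0.05. Filled points appear only in the 2 genotype comparisons, all below 0, and H2-Q8 is the farthest from 0 at -2.85 and -2.38.

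The other genes of the pathway were counted from fixed lists, taking the brightest probe per gene. Of 16 measured other class I and class I-like heavy chains, 5 were called lower and 1 higher in KO vehicle cells, with a median of -0.34. Over all probes, 1.95% were called lower and 2.2% higher. At an unadjusted p under 0.05 (limma), 8 of the 16 were lower and 2 higher, against 3836 of all 29059 probes in either direction. H2-T22, whose product is bound by some gamma delta T cells, fell by 1.17 (SE 0.11, adjusted p = 0.00016), H2-Q5 fell by 0.54 (adjusted p = 0.00261), and H2-M3, which presents formylated peptides, fell by 0.57 (adjusted p = 0.013, limma). The other lower calls were H2-Q10 (-0.40) and H2-Q4 (-0.43). The probes of these H2 genes were not searched against transcripts either. Whether they carry signal of H2-K1, H2-D1 or one another was not tested, so the calls may not stand for separate genes. Mr1, which presents vitamin metabolites to mucosal T cells, rose by 0.85 (SE 0.12, adjusted p = 0.00214). Under IL-4, H2-T22 (-0.999), H2-M3 (-0.55) and H2-Q5 (-0.44) fell and Mr1 rose (0.74). The H2-Q5 call under IL-4 was lost with the slide block (adjusted p = 0.0758). With slide as a block, 3 of the 5 lower calls in vehicle remained, those of H2-T22, H2-M3 and H2-Q5.

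Fewer calls came from the remaining steps of peptide supply. None of 14 constitutive proteasome core subunits was called in any of the 5 comparisons (limma), with 0 and 1 at an unadjusted p under 0.05 in the vehicle and IL-4 genotype comparisons. None of 19 measured peptide loading and processing genes was called for genotype, with 2 and 1 at an unadjusted p under 0.05. Erap1, which trims peptides in the endoplasmic reticulum, differed by -0.31 (adjusted p = 0.469) in vehicle, and Tapbpl, a tapasin relative, by -0.13 (adjusted p = 0.92). Of the 6 proteasome activator and related genes, Psme1, a subunit of the PA28 activator, was called lower in vehicle (-0.44, adjusted p = 0.0399), a call lost with the slide block (adjusted p = 0.112), and its partner Psme2 was not (-0.21, adjusted p = 0.639). Psmb10, which completes the immunoproteasome, was not called for genotype (-0.27 and -0.18) and rose with IL-4 by 0.96 in control (adjusted p = 0.00526) and 1.05 in KO cells (adjusted p = 0.0101). In the same IL-4 comparisons Pdia6, an oxidoreductase of the endoplasmic reticulum, rose by 0.76 and 0.88 (1 of its 3 other probes had the opposite sign in control cells), and Hfe, a class I-like iron regulator, by 1.44 and 0.87.

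Among 24 measured regulators of class I transcription, 4 were called lower and 0 higher in KO vehicle cells, against 1.95% and 2.2% of all probes. At an unadjusted p under 0.05 (limma), 6 of the 24 were lower and 3 higher, against 3836 of all 29059 probes in either direction. Stat2 and Irf9, which act together downstream of type I interferon receptors, fell by 0.60 (adjusted p = 0.0184) and fell by 0.33 (adjusted p = 0.0457). Irf7, an interferon-inducible factor, fell by 1.14 (adjusted p = 0.0471, limma). Under IL-4 3 were called lower and 2 higher, against 1.43% and 1.77% of all probes. Stat2 (-1.01) and Irf9 (-0.46) fell, and Irf8 (0.64) and Ifngr1 (0.48) rose. With slide as a block the Irf7 call in vehicle and the Stat2 call under IL-4 remained. Those of Stat2 (adjusted p = 0.0744) and Irf9 (0.131) in vehicle, and of Irf9 (0.0665), Irf8 (0.0962) and Ifngr1 (0.0908) under IL-4, were lost. Irf1 differed by -0.31 in vehicle (adjusted p = 0.259) and -0.45 under IL-4 (adjusted p = 0.108), and its other probe had the opposite sign in both. Jak2, a kinase of cytokine receptors, rose with IL-4 by 0.91 in control and 0.58 in KO cells, where its other probe had the opposite sign, and Irf2 rose by 0.41 in control cells. Ifnb1 and Rfx5 were not well above background on any array, and no probe carried the name Nlrc5.

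**Figure D5:**
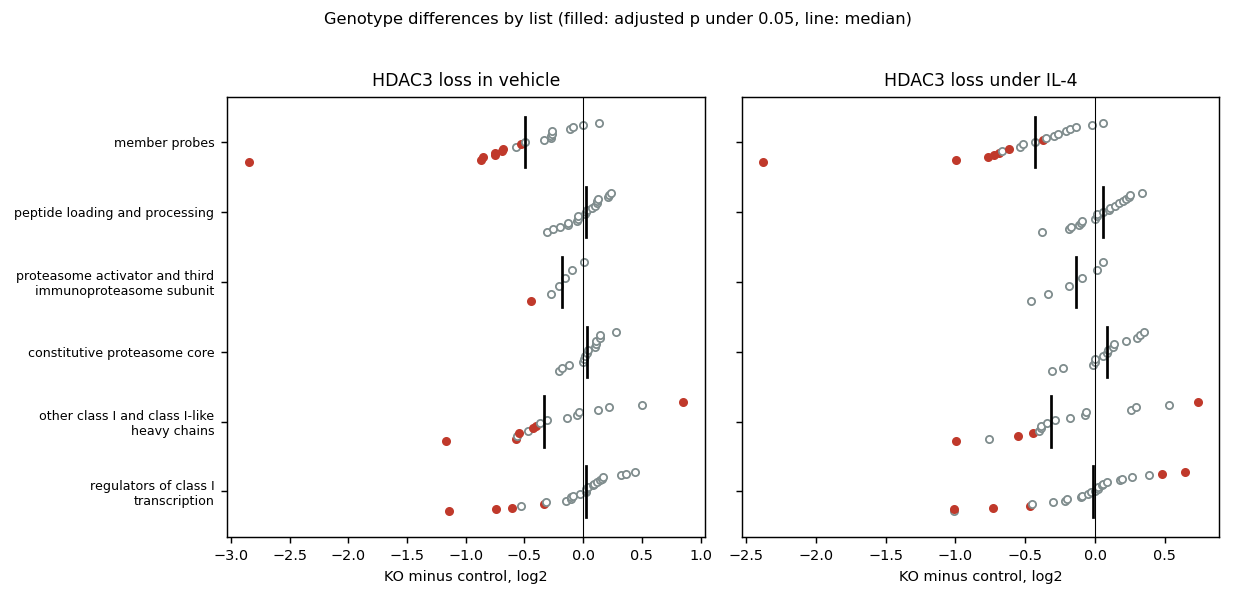
Genotype differences, KO minus control on the log2 scale, of the member probes and of the genes of 5 lists in vehicle and under IL-4; each point is a probe or gene, filled red at an adjusted p under 0.05, and the black line is the list's median. The members and the other heavy chains have medians below 0 (-0.49 and -0.34 in vehicle), while the constitutive proteasome core lies around 0 with no filled point.

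Across the 13 arrays, which share the 4 groups, the genes whose levels followed Tap1 most closely were Cphx1 (Pearson r = 0.936, Spearman rho = 0.929), Olfr156 (0.919 and 0.918), Tgtp1 (0.896 and 0.923), Nudcd1 (0.895 and 0.769) and Tcstv3 (0.892 and 0.874), of 20894 genes. For B2m they were Klhl36 (0.896 and 0.885), Rbm8a (0.889 and 0.857), Zfp319 (0.884 and 0.896), Acvr1b (0.876 and 0.846) and Mad2l1 (0.875 and 0.824). These are descriptions with no test, over arrays that differ in genotype and treatment.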

How the data were processed

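RNA was amplified with the NuGEN Ovation V2 kit, labelled with Cy3 and hybridised to 1-colour Agilent arrays, per the labels. The deposited scanner files hold the authors' processed intensity per spot (gProcessedSignal, background-subtracted, Feature Extraction 10.5.1.1 per the file headers, while the submitters' processing notes name version 9.53 and limma). The raw mean and background intensity and the flags for spots well above background were also deposited by the authors. A deposited table of the series holds the authors' intensity values on a linear scale (39280 rows, 94 missing values, column medians 181 to 181.5, 75th percentile 772 in every column). Its centring is not stated. Taken to log2 it served as an alternative. Probe coordinates in the files are of mm9, and promoter coordinates are of GRCm38.p6. Exon or untranslated region was not determined for the probes.

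Outlier-flagged spots were left out, spots of a probe averaged as log2 intensity, and each array's 75th percentile subtracted. Tested probes were those that exceeded background on all arrays of 1 or more groups. This used limma 3.58.1 in R 4.3.3 (lmFit with 4 group means, eBayes, Benjamini-Hochberg over 29059 probes, two-sided, threshold 0.05). Levels of probes are not comparable across probes, and no spot was saturated. The number of arrays limits the precision. On simulated arrays of 29059 probes for the HDAC3 comparison in vehicle, 44 of 100 planted log2 changes of 1 and 10 of 100 of 0.5 were called, with 1 false call. The simulated arrays gave 55 calls, against 640 higher and 568 lower in the data. The adjusted threshold depends on how many probes change, so these shares do not give the sensitivity of the real comparison.

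All member probes were named, as were at most 4 genes of each other list per comparison by smallest adjusted p, a few genes fixed by name (among them Irf1, Psmb10, Psme1, Psme2, Erap1, Tapbpl), Hdac3 and Lyz2, and the 5 genes most like Tap1 and B2m. Ifngr1, H2-Q10, H2-Q4, Psmb5, Psmb6, Psmb7, Rfx5, Ifnb1, and the markers of other cell types were named outside this rule, after their values were seen. One regulator that the rule would name is not reported here. The members and lists were chosen with earlier results of these data known. Alternatives tried were other normalizations, background correction, filters, probe choice, variance models, slide blocks, array weights, fewer samples and each array left out. The ratios, the GAANNGAA search and the fit without the 2 arrays with fewest spots above background were chosen after seeing the data.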

Additional observations from a re-analysis of the deposited data

Results flagged for a closer look

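Among the 19 member probes tested for a distant array in the 4 control vehicle arrays, 1 stood out. The Psmb8 probe A_51_P345366 read 2.76 on array 3 against 2.52, 2.52 and 2.51 on the others, a gap of 0.95 of the group's range. Chance alone sets about 1 in 20 groups apart in this way. Array 3 was also the highest of its group for the second Psmb8 probe, A_51_P345367, at 2.003. Without control vehicle array 3 the vehicle difference of A_51_P345366 stayed called.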

How the results depend on the processing

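Over the 19 member probes and 5 comparisons, 2399 values were recomputed under 26 settings. Of these 2287 kept their side of the threshold, 70 lost a call, 42 gained one and 0 turned a called direction. Values uncalled in both fits count among the 2287 even where their sign changed. For the Tapbp probe A_52_P684830 in vehicle, for example, the alternatives ran from -0.07 to 0.07. Counts given next are of probes higher, probes lower and, where stated, member probes. Normexp with quantile normalization gave 860 lower and 13 members lower for HDAC3 loss in vehicle, 515 higher and 535 lower for IL-4 in KO cells, and 4 higher and 5 lower for the interaction. Median scaling gave 323 higher in vehicle, 289 higher, 261 lower and 2 members for HDAC3 loss under IL-4, 458 lower for IL-4 in control and 128 lower for IL-4 in KO cells. Without a filter there were 421 higher in vehicle, 331 higher and 257 lower under IL-4, and 155 lower for IL-4 in KO cells. One probe per gene left 4 members in vehicle and 3 under IL-4, since fewer member probes were tested. Trend and robust variance gave 776 higher under IL-4, 2 members higher for IL-4 in control, 540 higher, 444 lower and 3 members higher for IL-4 in KO cells, and 7 higher and 6 lower for the interaction. Array weights gave 1241 higher and 1042 lower in vehicle, 722 lower under IL-4, 1486 higher, 1630 lower and 3 members higher for IL-4 in control, and 3 higher and 3 lower for the interaction. Only the groups compared gave 75 higher, 65 lower and 2 members under IL-4, and 120 higher and 41 lower for IL-4 in KO cells. Quantile normalization, the deposited table and the filter on every array each gave 2 lower for the interaction. Without the 2 arrays with the fewest spots above background, chosen after seeing the data, there were 401 higher and 359 lower in vehicle, 319 higher, 204 lower and 2 members under IL-4, 516 lower for IL-4 in control, and 200 higher and 121 lower for IL-4 in KO cells. Leaving out 1 array in turn gave 291 to 721 higher, 253 to 636 lower and 5 to 9 members lower in vehicle, and 286 to 454 higher, 236 to 412 lower and 4 to 6 members lower under IL-4. It gave 456 to 833 higher and 499 to 930 lower for IL-4 in control, 188 to 306 higher, 118 to 294 lower and 0 to 1 members higher for IL-4 in KO cells, and 0 to 2 higher and 1 to 2 lower for the interaction. Apart from fewer probes or arrays entering a fit, the cause of these shifts was not tested. No paired analysis was possible because the groups share no replicate numbers in the labels. Arrays of different groups do share slides, so slide served as the block and gave the within-slide differences. Signal near background limits the dim H2-D1 probe A_52_P246277, well above background on 10 of 13 arrays.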
